A study of Mus musculus with 2 samples.

Results

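The globin genes are clustered at 2 places in the mouse genome, and the CTCF-bound sites in and around both clusters were described in double-negative (DN) thymocytes. Sites were taken by position from the CTCF peak track in mm9 coordinates. Touching bins of 25 bp were joined into regions, and a region was kept where its centre lay in the alpha globin window (chromosome 11, 31.9 to 32.5 Mb) or in the beta globin window (chromosome 7, 110.8 to 111.2 Mb). The alpha window held 42 regions and the beta window 8, together 50 of the 53551 regions of the track. The choice used positions alone and no measured height. In the alpha window the genes themselves lie within about 32.15 to 32.2 Mb. In the beta window they lie, control region included, within about 110.95 to 111.05 Mb. These approximate stretches are called gene spans below.

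The cells were CD4-CD8- thymocytes of Rag1 -/- C57BL/6 mice aged 4 to 8 weeks. Without RAG1 the antigen receptor genes cannot be cut, so development stops at the DN stage. Chromatin crosslinked with formaldehyde was precipitated with an antibody against CTCF. The study had 1 CTCF library and 1 input library of the same cells. Only the CTCF library is used below, and the input was not used here. The labels do not give the number or sex of the animals or say whether they were pooled. No marker of the cell type could be examined, since binding sites measure no expression.

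CTCF is a zinc-finger protein that binds a long DNA motif and, with cohesin, holds the anchors of chromatin loops and the borders between domains. Hemoglobin is built from alpha-type and beta-type globin chains, which are made in red cell precursors. Hba-x encodes the embryonic zeta chain, and Hba-a1 and Hba-a2 encode the adult alpha chains. Hbb-y and Hbb-bh1 encode embryonic beta-type chains. Hbb-b1 and Hbb-b2 encode the adult beta chains of some strains, whose counterparts in C57BL/6 are named Hbb-bs and Hbb-bt. The alpha enhancers lie within and beside the neighbouring housekeeping gene Nprl3. The beta genes depend on a locus control region beyond Hbb-y, and known CTCF sites lie at the far ends of that locus. T cell precursors are not known to use either cluster, but transcription was not measured here.

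The gene order frames the positions. In the RefSeq gene table (GRCm38.p6) the protein-coding order along chromosome 11 was Il9r, Snrnp25, Rhbdf1, Mpg and Nprl3, then Hba-x, Hba-a1, Hbq1b, Hba-a2 and Hbq1a, followed by Sh3pxd2b and Ubtd2. Hbq1a and Hbq1b are the duplicated theta globin genes. Along chromosome 7 the order was Olfr69, Olfr68 and Olfr67, then Hbb-bt, Hbb-bs, Hbb-bh2, Hbb-bh1 and Hbb-y, followed by Olfr66, Olfr64 and Olfr65. The Olfr genes encode odorant receptors and are used in the nose. Coordinates were not converted from GRCm38 to mm9, so a region could be placed in a gene span but not assigned to a single gene.

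Promoter sequences were searched for a CTCF-like motif, while the rest of each cluster was not searched. The promoters are RefSeq sequences in the GRCm38.p6 build, running from 250 bases before to 50 bases after the start site. Of the 7 globin genes examined, 4 had a promoter in the table, namely Hba-x, Hba-a1, Hba-a2 and Hbb-y. With Hbq1b, Hbq1a, Hbb-bt, Hbb-bs and Hbb-bh2 this made 9 globin promoters. The core of the CTCF motif was searched on both strands as AGNGGGC and as the longer AGNGGGCGC, which contains the shorter form. Other forms of the core were not searched, so a promoter without a match may still hold one. The longer form occurred in both theta promoters and in none of the other 7 globin promoters. It occurred in 2.88% of the 32851 promoters of the table. The shorter form occurred in 6 of the 9, against 25.8% of all promoters. The 9 belong to related genes, and the theta promoters share 95.3% of their bases, so these matches are not independent counts.

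The 4 promoters below show the theta pair beside an embryonic and an adult alpha-type gene. Each is written 5′ to 3′ on the strand of its gene, which is the plus strand for all 4, and capitals mark every match to either form of the motif.
Hbq1b (chr11:32286714-32287013): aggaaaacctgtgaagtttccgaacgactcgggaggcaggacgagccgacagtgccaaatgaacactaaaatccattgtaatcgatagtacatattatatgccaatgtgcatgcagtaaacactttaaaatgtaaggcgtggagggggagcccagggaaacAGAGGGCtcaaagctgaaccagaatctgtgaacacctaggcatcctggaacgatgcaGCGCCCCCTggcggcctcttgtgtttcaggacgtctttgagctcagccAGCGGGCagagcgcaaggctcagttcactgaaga
Hbq1a (chr11:32299819-32300118): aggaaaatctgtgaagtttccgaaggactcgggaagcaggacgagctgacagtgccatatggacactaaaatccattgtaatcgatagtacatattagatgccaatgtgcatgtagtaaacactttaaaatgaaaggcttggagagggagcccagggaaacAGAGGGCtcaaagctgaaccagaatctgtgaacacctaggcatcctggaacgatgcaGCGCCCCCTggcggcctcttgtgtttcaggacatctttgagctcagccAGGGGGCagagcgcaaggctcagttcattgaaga
Hba-x (chr11:32276350-32276649): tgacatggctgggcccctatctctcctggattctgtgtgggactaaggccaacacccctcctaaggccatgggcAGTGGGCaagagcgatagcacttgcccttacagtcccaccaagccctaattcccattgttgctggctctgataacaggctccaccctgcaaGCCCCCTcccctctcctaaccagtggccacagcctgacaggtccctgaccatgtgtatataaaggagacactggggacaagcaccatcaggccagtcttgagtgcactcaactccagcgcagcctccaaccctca
Hba-a1 (chr11:32283422-32283721): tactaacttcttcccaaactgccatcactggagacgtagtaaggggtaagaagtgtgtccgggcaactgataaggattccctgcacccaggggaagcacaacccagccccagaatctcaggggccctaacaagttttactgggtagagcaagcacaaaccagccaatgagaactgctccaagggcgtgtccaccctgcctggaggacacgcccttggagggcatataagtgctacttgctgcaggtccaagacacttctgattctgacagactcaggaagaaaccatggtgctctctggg

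In both theta promoters the match to the longer form reads GCGCCCCCT on the strand shown, so the motif itself, AGGGGGCGC, faces the other way. The 2 copies of the motif have the same strand and lie 13.1 kb apart in GRCm38. Hba-x had 2 matches to the shorter form alone, whereas Hba-a1 and Hba-a2 had none of either form. The adult alpha promoters were identical over all 297 bases that overlap between them, and the theta promoters differed at 14 of 300 bases with a longest shared run of 105 bases. How reads that fit more than 1 place were treated is not given in the sources used here. On the beta side, Hbb-bt, Hbb-bs and Hbb-bh2 had 1 match each to the shorter form, and Hbb-y had none. The promoters of the adult beta genes Hbb-bs and Hbb-bt shared 56.2% of 299 bases aligned at a single shift without gaps. Inserted or deleted bases would lower this share. The promoters of 5 neighbours of the alpha cluster (Il9r, Snrnp25, Mpg, Nprl3 and Sh3pxd2b) held 0 matches to the longer form, and Mpg, a DNA repair enzyme gene, held 1 to the shorter form. A match describes letters and not a bound site.

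The alpha globin cluster lay in a patch crowded with CTCF. Its 42 regions in 600 kb came to 70.0 per Mb (exact Poisson 95% interval 50.5 to 94.6). The rest of chromosome 11 held 33.7 per Mb (32.7 to 34.8), so the window was 2.08 times as dense (1.49 to 2.81). Among 3991 autosomal windows of the same length the median was 10 regions, with quartiles of 3 and 19, and 3.36% of them held at least 42. All intervals of counts and ratios cover counting error in 1 library, and the track has no replicate, height or depth.

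The beta globin cluster was ordinary by the same measure. Its 8 regions in 400 kb came to 20 per Mb (8.63 to 39.4), against 23.6 per Mb (22.8 to 24.4) in the rest of chromosome 7. The ratio of 0.847 had an interval of 0.365 to 1.67, which includes equal density. At least 8 regions were found in 44.3% of the 6006 autosomal windows of 400 kb, whose median was 6. The alpha window was thus 3.50 times as dense as the beta window (exact 95% interval 1.62 to 8.63).

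**Figure D1:**
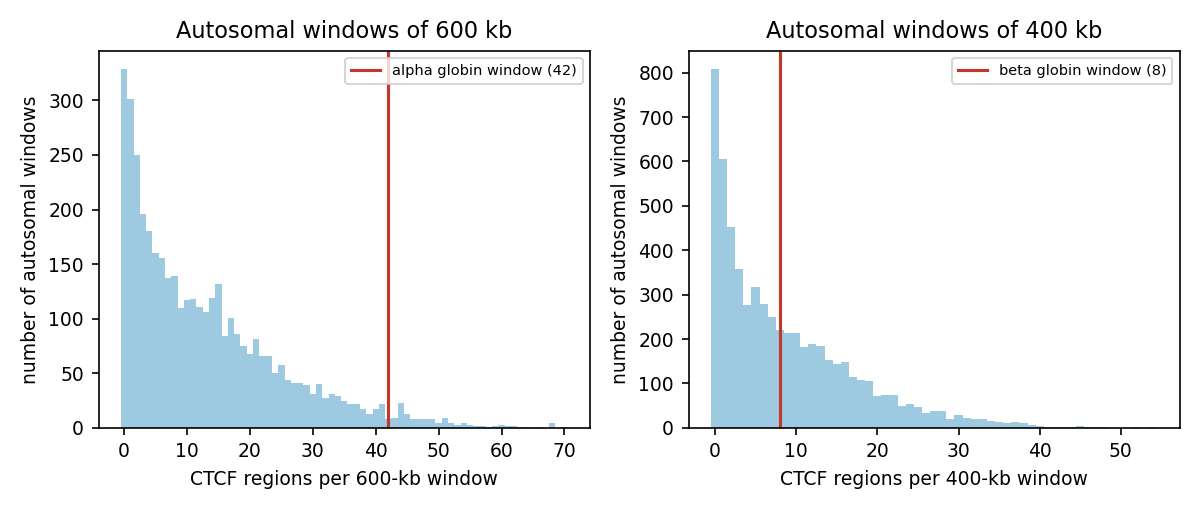
Number of autosomal windows (vertical axis) by the number of CTCF regions they hold (horizontal axis), for windows of 600 kb on the left and 400 kb on the right, with a line at each globin window. The alpha window, at 42, stands in the upper tail, and the beta window, at 8, lies near the middle.

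The crowding on chromosome 11 was local. Outside the window, but within 2 Mb of the centre of the alpha gene span, the density was 22.4 per Mb (17.6 to 28.0). In steps of 100 kb from that centre, the 3 fullest steps of the 4 Mb held 11, 10 and 9 regions, and they were the step on the higher side of the centre and the nearest 2 on the lower side. Around the beta genes the same distance held 20.6 per Mb (16.1 to 25.8) outside the window, a mean close to the density within it. These surroundings were uneven, however: the step from -600 to -500 kb held 0 regions, and that from -1900 to -1800 kb held 7.

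**Figure D2:**
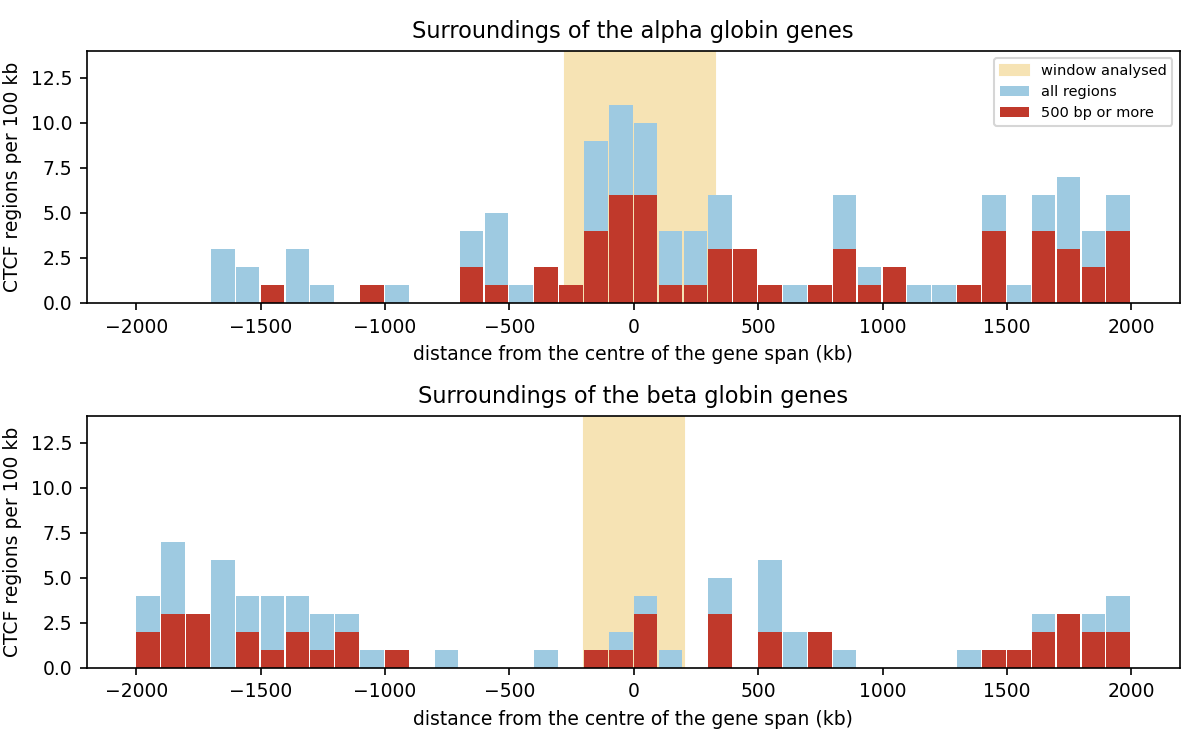
CTCF regions per 100 kb (vertical axis) by distance from the centre of each gene span in kb (horizontal axis), with regions of 500 bp or more in red and the analysed window shaded. The fullest steps around the alpha genes, with 11, 10 and 9 regions, adjoin the centre, while the 4 steps nearest the centre of the beta genes hold between 1 and 4.

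Inside the alpha gene span the sites lay at one end. A stretch of 39.2 kb held no region. It ran from the last region below the span (32146821 to 32147495, 675 bp) to the first region in it (32186646 to 32187170, 525 bp). The stretch took up 36.6 kb, or 73.3%, of the gene span. Stretches at least this long made up 26.3% of all autosomal gaps, so its length was not unusual. In GRCm38 the promoters from Hba-x to Hbq1a lie between 32276350 and 32300118, a shorter distance than the span. The 73.3% is therefore a share of the span, and the share of the genes themselves was not measured. In all, 3 regions had their centre in the span: that of 525 bp, and a pair of small ones of 150 bp (32198771 to 32198920) and 125 bp (32198946 to 32199070), which were separated by 25 bp. At least 3 regions were present in 15.8% of autosomal windows of 50 kb. The count of 3 treats the small pair as separate regions, and it would be lower with them joined.

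Another region, 625 bp wide (32199721 to 32200345), straddled the upper end of the span, and its centre fell just outside. This region and that of 525 bp were the wide sites at the genes, and their centres lay 13.1 kb apart in mm9. The motifs of the theta promoters, which RefSeq places after Hba-a1 and after Hba-a2, had the same spacing to this precision in GRCm38. The match of spacing was noticed after the data were seen, and whether the regions lie on the theta promoters was not tested.

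Below the alpha genes, on the side where Nprl3, Mpg and Rhbdf1 precede them, regions came in quick succession. The nearest 4 were the region of 675 bp at 2.5 kb from the span, a narrower one of 200 bp (32140496 to 32140695) at 9.3 kb, and a pair of 625 bp each at 11 kb (32138346 to 32138970) and 12.5 kb (32136871 to 32137495). The members of the pair were separated by 850 bp. Within 100 kb on this side there were 15 regions, of which 8 were 500 bp or wider, and the whole 250 kb on this side held 21. Over the autosomes 46.8% of regions were 500 bp or wider. Autosomal windows of 100 kb had a median of 1 region, with quartiles of 0 and 3. The shares of such windows holding as many regions as either alpha flank were not computed. Several of the 15 regions lay only 125 to 425 bp from a neighbour, and the count would be lower with them joined.

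Above the genes, towards Sh3pxd2b, which encodes an adaptor protein of cell protrusions, regions also followed closely. After the straddling region came 2 very small ones of 25 and 50 bp at 14.6 and 14.7 kb, and then regions of 675 bp (32221046 to 32221720) and 650 bp (32224521 to 32225170) at 21.0 and 24.5 kb. A second close pair, of 650 and 775 bp (32240921 to 32241570 and 32242571 to 32243345), was separated by 1000 bp. Within 100 kb on this side there were 9 regions, 5 of them 500 bp or wider (autosomal share 46.8%), and the whole 300 kb held 18. The lower side had 84.0 regions per Mb (52.0 to 128) and the higher side 60.0 (35.6 to 94.8), so the sides did not differ beyond counting error. The longest stretch without a region in the window, 106 kb, lay away from the genes, after the first region (31900071 to 31900620). Gaps at least this long made up 9.35% of autosomal gaps.

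**Figure D3:**
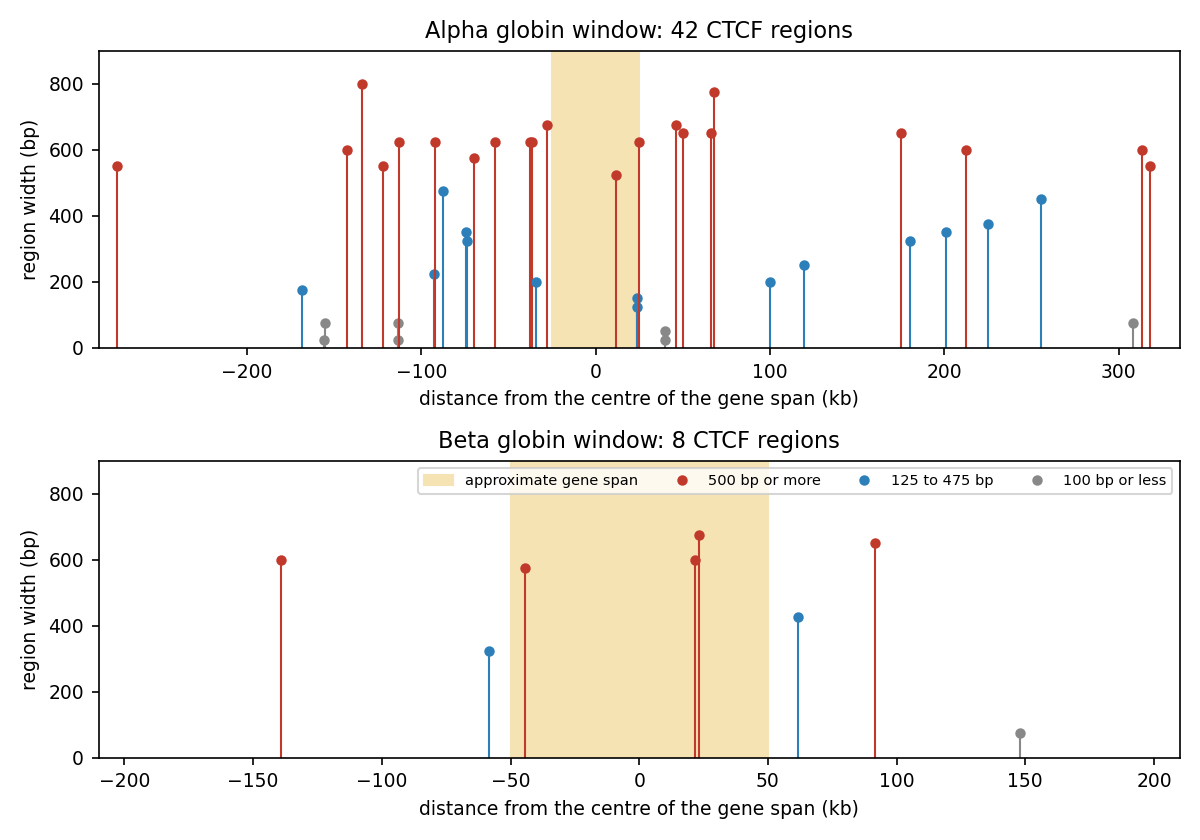
Each CTCF region as a stem whose height is its width in bp, by distance from the centre of the gene span in kb, for the alpha window above and the beta window below; colours give the width class and shading the approximate gene span. Within 100 kb of the gene span the alpha genes have 15 regions below, 8 of them 500 bp or wider, and 9 above, 5 of them wide, whereas the beta genes have 2 below and 3 above, 1 wide on each side. Over the autosomes 46.8% of regions are 500 bp or wider, and windows of 100 kb hold a median of 1 region.

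In the beta gene span lay 3 regions, of 575 bp (110955280 to 110955854), 600 bp (111021455 to 111022054) and 675 bp (111022880 to 111023554). The median of autosomal windows of 100 kb was 1, and 32.8% of them held as many or more. The first stood near the lower end of the span, on the side of Hbb-bt and Hbb-bs. The other two formed a pair separated by 825 bp, in the part of the span with higher coordinates, the side of Hbb-y in the gene order.

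Between the first region and that pair ran 65.6 kb without a region, which was 65.6% of the beta gene span. Gaps of that length or more made up 16.0% of autosomal gaps. On the lower side, where odorant receptor genes adjoin the cluster in the gene order, the next regions were one of 325 bp at 8.2 kb from the span (110941505 to 110941829) and one of 600 bp at 89.0 kb (110860355 to 110860954). On the higher side the regions measured 425 bp (111061480 to 111061904), 650 bp (111091105 to 111091754) and 75 bp (111147730 to 111147804), at 11.5, 41.1 and 97.7 kb. Both sides therefore had a region within 12 kb of the span, and each of these was narrower than the 3 in the span.

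The 8 beta regions had a long gap on either side. Below the lowest of these regions 196 kb held no region, and above the highest 168 kb held none. Autosomal gaps at least as long as these made up 4.30% and 5.18% of all gaps, counted by number. Long gaps take up more sequence than short ones, so a fixed position such as a window edge falls in them more often than these shares. The share of sequence in such gaps was not computed, so whether these gaps are unusual at a fixed position was not tested. The nearest regions beyond were one of 100 bp on the lower side (110664505 to 110664604) and one of 350 bp on the higher side (111315505 to 111315854), with 651 kb between them. The longest gap within the window, 80.6 kb, separated the 2 lowest regions, and 12.7% of autosomal gaps were at least as long. In the alpha window the median gap was 8.10 kb (exact 95% interval of the median 3.6 to 12.6 kb), and in the beta window it was 37.9 kb (0.825 to 80.6 kb, 7 gaps). The median over all autosomal gaps was 14.4 kb.

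**Figure D4:**
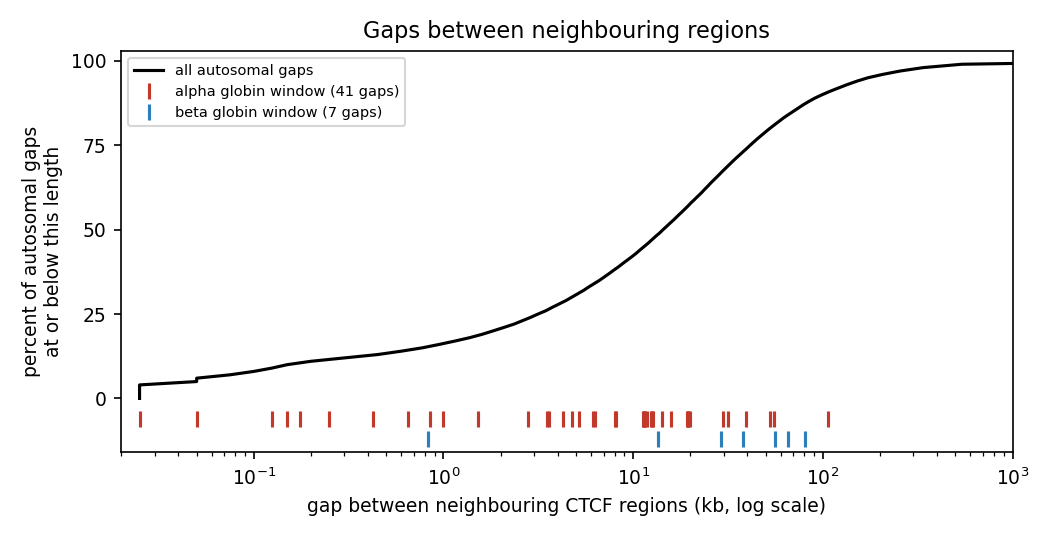
Percent of autosomal gaps between neighbouring CTCF regions at or below a given length (black line; horizontal axis in kb, log scale), with a tick for each of the 41 gaps in the alpha window and the 7 in the beta window. The alpha ticks reach from 25 bp to 106 kb, while 6 of the 7 beta ticks lie above 10 kb.

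Width was the sole measure of a site's size. Of the 42 alpha regions 21 had a width of at least 500 bp, which was 50% (exact binomial 95% interval 34.2 to 65.8%), and of the 8 beta regions 5 had, or 62.5% (24.5 to 91.5%). Both intervals include the autosomal share of 46.8%. Regions of 100 bp or less numbered 7 in the alpha window and 1 in the beta window. Median widths were 500 bp (325 to 600 bp) and 587.5 bp (75 to 675 bp), and the autosomal median was 425 bp. The widest region of the alpha window measured 800 bp (32040721 to 32041520) and lay 108.5 kb below the genes. The widest of the beta window was the region of 675 bp in the gene span.

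Wide regions alone are a subset of the regions already counted, so their similar ranks are not separate evidence on density. In the alpha window the 21 wide regions compared with a median of 4 in windows of 600 kb, of which 3.96% held at least 21. The 5 wide regions of the beta window were matched or exceeded in 36.3% of windows of 400 kb, where the median was 3. Close pairs of wide sites, with no other region between them and at most 2 kb apart, took in 4 of the 21 wide regions of the alpha window (19.0%, exact 95% interval 5.45 to 41.9%) and 2 of the 5 of the beta window (40.0%, 5.27 to 85.3%). Over the autosomes 11.9% of wide regions were in such pairs, a share within both intervals.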

How the data were processed

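CTCF ChIP-seq of DN thymocytes was analysed from the authors' deposited track of 1 library. The track gives start and end of 825544 bins of 25 bp, and lists positions only, with no height, score or depth, per the file headers. Per the submitters' processing notes, Bowtie and the build mm9 were used. The peak caller, its threshold and the use of the input were not given in the sources used here, and CTCF may have bound weakly in stretches listed as empty.

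Touching bins were joined and written as 1-based regions. Windows and approximate gene spans came from a position rule. The members and lists were chosen with earlier results of these data known. Windows of equal length started at whole multiples of that length, within the part of each autosome that regions span. Promoters and gene order came from RefSeq tables of GRCm38.p6; no mm9 genome was used here and no coordinate was converted. Hbb-bh1, Hbb-b1, Hbb-b2 and Rhbdf1 matched no promoter, and Polr3k was left out because the table places it on another chromosome. Named regions were those in the gene spans, the nearest on each side and the widest; others named were chosen after their values were seen. With 1 library no test was possible. Joining was checked on 52254 simulated regions kept apart by empty bins, of which 100% were recovered exactly. Such recovery checks the code alone and not whether a region is a true site. The software was matplotlib 3.10.9, pandas 2.3.3, scipy 1.17.1 and numpy 2.4.6 under Python 3.11.15.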

Additional observations from a re-analysis of the deposited data

How the results depend on the processing

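The density, median width and longest empty stretch of each window, and the ratio of both densities, made 7 results, each recomputed under 5 alternatives. Of the 35 values 31 stayed within the counting interval (for stretches, unchanged), 4 moved and 0 changed direction; only the ratio had a direction to change. All 4 came from counting only regions of 500 bp or wider, which leaves fewer regions by construction: the alpha density became 35.0 per Mb, the alpha median width 625 bp, and the longest stretches 131 kb (alpha) and 94.3 kb (beta). The ratio of 3.50 ranged from 2.80 with wide regions only (1.03 to 9.50) to 3.50 with regions wholly inside the windows, and was 3.08 with regions joined within 200 bp. Joining within 1000 bp merges the close pairs. Part of the 31 unchanged values could not have moved. Joining within 200 or 1000 bp cannot shorten the longest stretches, and no region crossed a window edge. No paired analysis was possible because the CTCF library had no replicate. Depth is unknown, and 8 regions in the beta window allow wide intervals.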
